A study of Mus musculus with 2 samples.

Results

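Large stretches of the mouse fibroblast genome carried fewer Brg1 ChIP tags than their input predicted, and 6286 autosomal windows of 100 kb met the rule for such Brg1-poor chromatin. For each window from position 3300000 on, the tags of the ChIP library were divided by the tags of the input library, and this quotient was divided by the same quotient of the autosomal totals, so that a ratio of 1 is the autosomal mean. A window counted as Brg1-poor with at least 100 input tags and a ratio of 0.8 or less. Of 24104 autosomal windows, 23316 had enough input tags, and the 6286 Brg1-poor windows made up 27.0% of them, or 628.6 Mb. The ratio itself chose the windows, so it is given below as a description. Comparison windows are the 3337 with a ratio within 5% of 1, and Brg1-rich windows are the 2888 with a ratio of 1.25 or more (12.4% of the tested windows).

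Both libraries came from primary embryonic fibroblasts of wild-type mouse embryos at E13.5, on a mixed background of C57BL/6 and 129. The cells carry no transgene or deletion according to the labels, which do not say how many embryos were used or whether both libraries came from the same culture. Nuclei were treated with micrococcal nuclease and sonicated briefly, and fragments were either precipitated with a rabbit polyclonal antibody against BRG1 or taken as input with no antibody. Each group has 1 library, of 13581267 tags for the ChIP and 5778620 for the input, so nothing below has a replicate check, no p-value is given, and every 95% interval covers counting error only. Coordinates are those of mm9. The gene coordinates provided for the mouse are those of GRCm38 and were not used here, so the genes in these windows are not named and the fibroblast identity was not checked with marker genes.

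Brg1 is the ATPase of Swi/Snf complexes, which use ATP to slide or eject nucleosomes, and it is best known from enhancers and promoters of active genes. Mammalian chromosomes alternate over long distances between gene-rich chromatin and compact chromatin that replicates late and often lies at the nuclear lamina. Micrococcal nuclease cuts the linker between nucleosomes, so the input of such a preparation also varies with how readily chromatin is released and cut.

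The Brg1-poor windows formed the lower flank of a single broad distribution and were not separated from the rest by a gap. The median ratio of all tested windows was 0.925, and 61.7% of them lay under 1. Among the Brg1-poor windows the ratio ran from 0.474 up to the threshold, with a median of 0.728. In 2081 of them it was 0.7 or less and in 192 it was 0.6 or less, whereas 4418 other windows lay between 0.8 and 0.9. Together they held 2119936 ChIP tags, 16.0% of the autosomal ChIP tags, against 1247652 input tags, 22.2% of the autosomal input, a summed ratio of 0.721 (95% interval 0.719 to 0.723). A single window was less certain. The interval of the median member reached up to 0.875, it lay wholly at or under 0.8 in 1066 members (17.0%), and it reached 1 in 6 members.

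**Figure D1:**
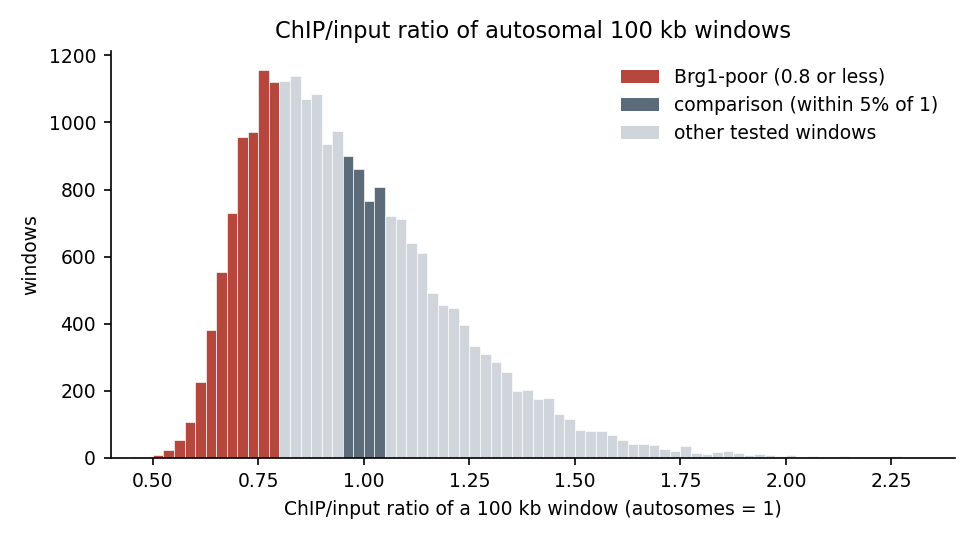
Number of autosomal 100 kb windows (vertical axis) by ChIP/input ratio (horizontal axis, autosomes together set to 1, bins of 0.025). Brg1-poor windows (red) are the lower flank of a continuous distribution with a median of 0.925, and comparison windows (dark grey) lie within 5% of 1.

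The values beside the threshold show how little it divides. The 3 members closest to it were on chromosome 2 at 168100000 to 168199999 (541 ChIP and 287 input tags), with 443 and 235 tags on chromosome 9 at 115000000 to 115099999, and with the same counts on chromosome 4 at 69800000 to 69899999, with ratios of 0.79994 to 0.79998. The first windows outside were on chromosome 19 at 51400000 to 51499999 (345 and 183 tags), with 460 and 244 tags on chromosome 10 at 105200000 to 105299999, and with 411 and 218 tags on chromosome 9 at 74000000 to 74099999, with ratios of 0.80004 to 0.80007. The neighbours of the 3 windows outside were at 0.658 to 0.842, while the member on chromosome 2 was the only Brg1-poor window of its run.

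Because counting noise helps to push a window under the threshold, windows were also chosen on plus-strand tags alone and measured on the minus-strand tags, which the choice had not used. The low ratio was carried by the unused strand, at a smaller size. The 6295 windows chosen at 0.8 or less had a plus-strand ratio of 0.708 and a minus-strand ratio of 0.768 (0.766 to 0.771). Over single autosomes the minus-strand ratio ran from 0.744 to 0.801, and it was at most 0.8 on 18 of 19. Of the chosen windows 62.4% were again at 0.8 or less on the minus strand, against 27.0% of all windows tested in this way, and 95.9% were under 1. Windows chosen within 5% of 1 had a minus-strand ratio of 0.985 (0.982 to 0.989), and 11.4% of them fell to 0.8 or less.

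The ratio of the unused strand followed that of the chosen strand along its whole range. In windows with a plus-strand ratio of 0.6 or less it was 0.707 (0.699 to 0.716), and in those from 0.75 to 0.8 it was 0.803 (0.799 to 0.807). Across 23249 windows the ratios of both strands had a Pearson correlation of 0.811 and a Spearman correlation of 0.774, as a description of windows that share their libraries. Tags on opposite strands can come from the same short stretch of DNA, as shown further below, so the windows were also split into alternating 1 kb bins. Chosen on the even bins, 6299 windows had a ratio of 0.770 (0.767 to 0.772) in the odd bins, the same to within the counting error.

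**Figure D2:**
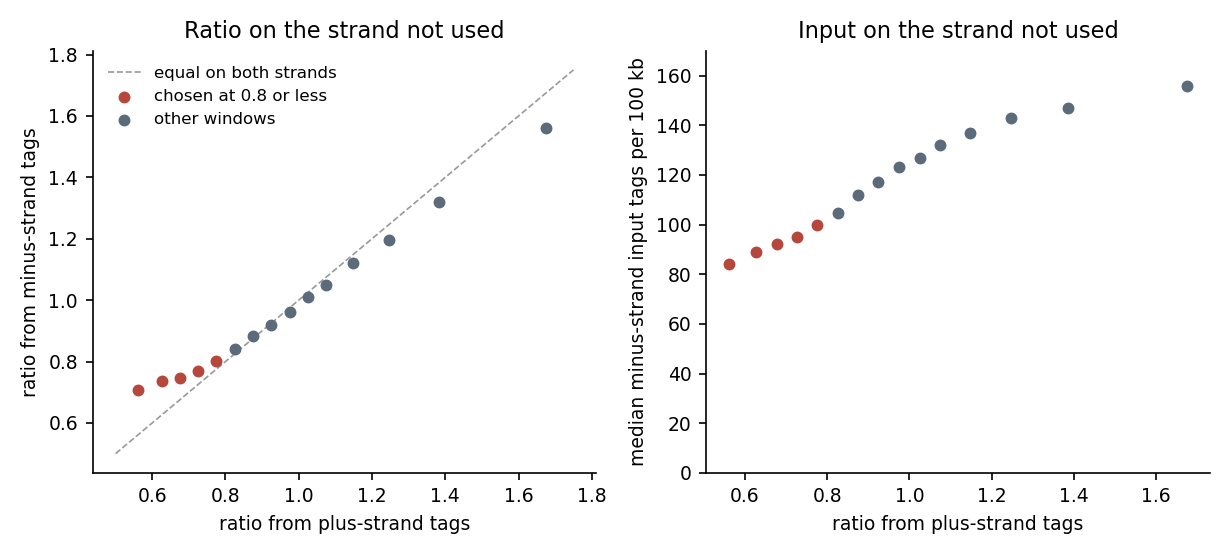
Windows grouped by their plus-strand ratio (horizontal axes): minus-strand ratio with 95% intervals, smaller than the points (left), and median minus-strand input tags per 100 kb (right). Windows chosen at 0.8 or less (red) stay low on the unused strand, from 0.707 to 0.803, and their median input rises from 84 to 100 tags, against 123 and 127 in the groups next to a ratio of 1.

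The 5 windows with the lowest upper bound lay within longer low stretches. On chromosome 5 at 128800000 to 128899999, 202 ChIP tags stood against 179 input tags, a ratio of 0.479 (0.390 to 0.589), and its plus-strand and minus-strand ratios of 0.515 and 0.45 were both low. On chromosome 1 at 192100000 to 192199999, 299 stood against 252, a ratio of 0.504 (0.424 to 0.598), and all 10 of its 10 kb bins were at 0.8 or less. In a second window of chromosome 5, starting at 126300000 and ending at 126399999, 329 ChIP tags met 270 input tags, a ratio of 0.517 (0.439 to 0.610). These 3 windows belonged to runs of 9, 6 and 10 Brg1-poor windows. On chromosome 6 at 68400000 to 68499999, 221 stood against 185 (0.507, interval 0.415 to 0.620), in a run of 10 windows. On chromosome 4 at 152400000 to 152499999, 300 stood against 243 (0.524, interval 0.441 to 0.623), in a run of 14. All 10 windows next to these 5 were Brg1-poor themselves, at 0.591 to 0.706. The input of the 5 windows, 179 to 270 tags, lay in the middle of the range, since the central 90% of tested windows held 150 to 335 tags.

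Brg1-poor windows clustered along the chromosomes, but most of the clusters were short. The 6286 windows fell into 2877 runs of adjacent members, of which 1566 were a single window, 1020 spanned 2 to 4 windows, and 291 spanned at least 5 windows, that is 500 kb. These 291 long runs held 2104 windows, 33.5% of all members, and 48 runs of at least 1 Mb held 585 windows (9.31%). Thus "large domain" describes a part of the members, while 24.9% of them stood alone. By the same count the 2888 Brg1-rich windows gave 42 runs of at least 5 windows with a longest of 1.3 Mb, and the 3337 comparison windows gave 3 with a longest of 0.6 Mb. These groups differ in size, and the comparison group is bounded on both sides, so these counts are set side by side without a test.

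The tendency to lie together faded over a few megabases. Of the windows directly after a member 54.9% were members too, against 27.0% of all tested windows. The share was 41.4% at 500 kb, 35.8% at 1 Mb and 32.0% at 2 Mb, and at 5 Mb, with 25.8%, it was no longer above that of all windows. From a Brg1-rich window, 3.89% of the next windows were Brg1-poor, and the share returned to 28.1% by 5 Mb. Adjacent windows share no tags, so their counting errors are separate.

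**Figure D3:**
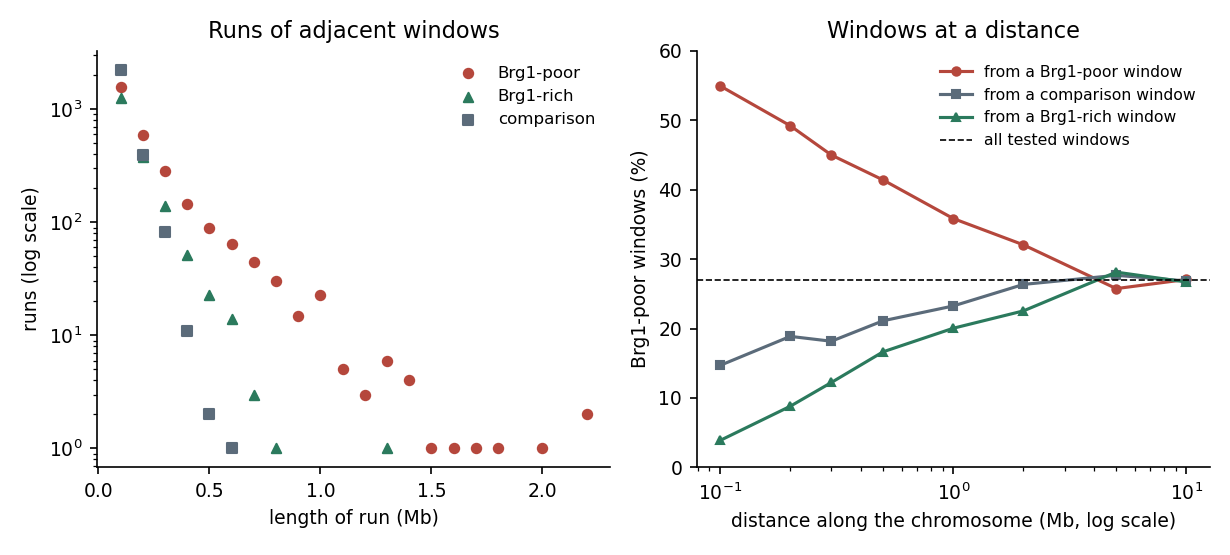
Left: number of runs (log scale) by length in Mb for Brg1-poor, Brg1-rich and comparison windows; Brg1-poor runs reach 2.2 Mb. Right: share of Brg1-poor windows at a given distance (log scale) from a Brg1-poor, comparison or Brg1-rich window, with the share of all tested windows dashed; the curve from Brg1-poor windows falls from 54.9% at 0.1 Mb to 25.8% at 5 Mb.

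Both of the longest runs measured 2.2 Mb. Chromosome 17 carried the first, from 18100000 to 20299999, where 4985 ChIP tags stood against 3206 input tags, a ratio of 0.660 (0.631 to 0.690). Plus-strand tags alone gave 0.683 there and minus-strand tags 0.638. Its 22 windows lay between 0.585 and 0.772, and its border was sharp on the lower side, where the adjoining 500 kb had a ratio of 1.29, and not on the upper side, where they had 0.691. Chromosome 8 carried the other, from 15100000 to 17299999, with 7146 ChIP tags against 4267 (0.711, interval 0.684 to 0.738), and its adjoining 500 kb were at 1.11 and 0.808. The input of these runs differed, with 146 tags per window on chromosome 17 and 194 on chromosome 8.

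The next 5 runs measured 1.5 to 2.0 Mb and had similar ratios. The first of them, on chromosome 1 at 118000000 to 119999999, had a ratio of 0.690 from 5060 ChIP and 3114 input tags. On chromosome 3 the run from 73100000 to 74899999 had 0.707, from 4835 and 2904 tags, and on chromosome 15 the run from 44700000 to 46399999 had 0.682, from 4503 and 2802 tags. A second run of chromosome 1, from 103300000 to 104899999, had 0.696, from 4183 and 2549 tags, and a run of chromosome 16, from 61000000 to 62499999, had 0.702, from 4049 and 2449 tags. Their intervals overlapped one another, from a lowest bound of 0.6504 to a highest of 0.740. The 500 kb on either side of the run of chromosome 1 at 103300000 were themselves at 0.733 and 0.752, so that a single window above 0.8 ended it on each side of a wider low stretch. The run on chromosome 15, by contrast, adjoined 500 kb at 1.01 on its lower side.

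The last 3 of the 10 longest runs measured 1.4 Mb each and were taken, by lower ratio, from 4 runs of that length. The one left out, on chromosome 12 at 89400000 to 90799999, had a ratio of 0.713 from 4481 ChIP and 2668 input tags. The run on chromosome 4 at 151900000 to 153299999, which ends 2.4 Mb before the end of the last window of the chromosome, had the lowest ratio of the 10, with 4717 ChIP and 3195 input tags (0.627, interval 0.599 to 0.656). It also had the most input per window, 228 tags, against 146 to 194 in the other 9 runs. The run on chromosome 10 at 128500000 to 129899999 (3551 and 2167 tags, ratio 0.695) ended 0.1 Mb before the end of the last window of its chromosome. The run on chromosome 2 from 98000000 to 99399999 had a ratio of 0.697, from 3603 and 2193 tags. In all 10 runs the plus-strand and the minus-strand ratio were both under 0.73. These runs were ranked by the length of the stretch under the threshold, which bounds their window values from above.

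Longer runs had lower ratios and less input. From single windows over runs of 2 to 4 and of 5 to 9 windows to runs of 10 or more, the summed ratio was 0.739, 0.722, 0.707 and 0.691, in which the choice of members takes part. In the same order the median input was 215, 191.0, 176 and 168 tags per window, and the median ChIP 375, 324, 295 and 273 tags. Counting error alone is larger where the input is low, and its part in the lengths of the runs was not tested.

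To see how the signal changed at the ends of long runs, runs of at least 5 windows were chosen on plus-strand tags, which gave 237 runs, and the minus-strand tags were summed in 20 kb bins around their 474 borders. The minus-strand ratio was under 1 in all 237 runs, from 0.586 to 0.918 with a median of 0.727, and in 211 of them (89.0%) it was 0.8 or less. Borders were placed where windows stopped being at 0.8 or less on the plus strand, so a step there partly follows from the choice. The step was narrow. The ratio was 0.908 (0.886 to 0.930) at 90 kb outside, 0.833 (0.812 to 0.854) at 30 kb outside, 0.795 (0.776 to 0.816) in the last bin outside and 0.738 (0.719 to 0.758) at 30 kb inside, so that most of the change fell within about 100 kb, the width of the windows that placed the borders.

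Inside the runs the ratio was 0.742 (0.733 to 0.751) over the first 100 kb and 0.723 (0.716 to 0.731) from 100 to 240 kb. Outside it was 0.902 (0.892 to 0.912) at 100 to 200 kb and 0.932 (0.928 to 0.937) at 500 to 1000 kb. Both values were under the autosomal mean, but the second lay near the median of tested windows, 0.925 on both strands together. The change at the border was mostly a change in the ChIP. Relative to the autosomal mean, ChIP density went from 0.771 at 100 to 200 kb outside to 0.552 at 100 to 240 kb inside, and input density from 0.855 to 0.764. Other runs can lie within the outer bins, since no run was excluded there.

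**Figure D4:**
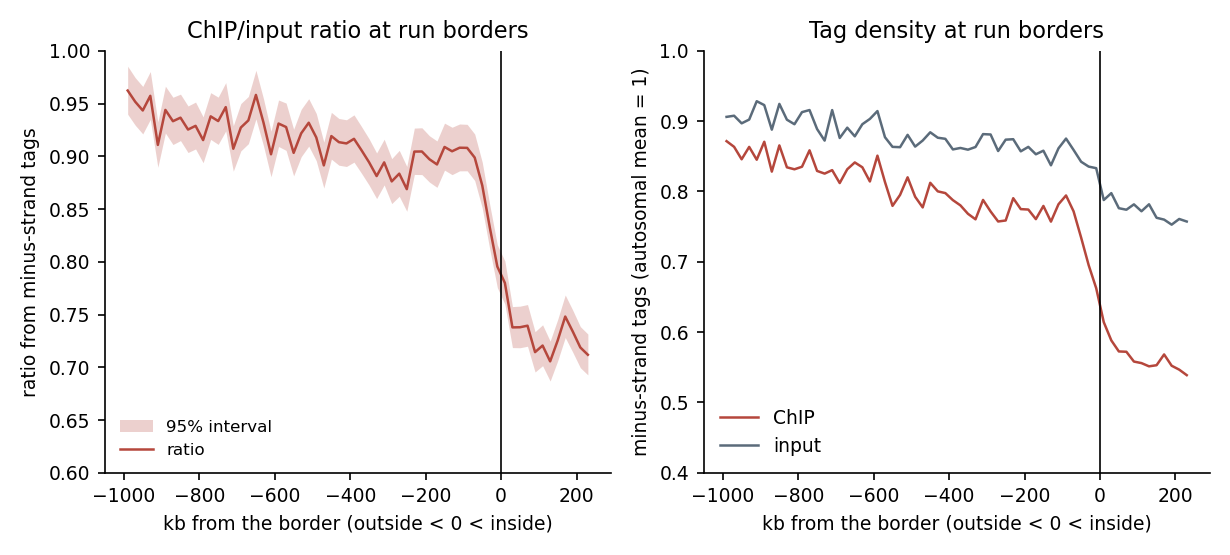
Minus-strand ratio with its 95% interval (left) and minus-strand tag density relative to the autosomal mean (right) in 20 kb bins around the 474 borders of 237 runs chosen on plus-strand tags. Distances under 0 are outside the runs; the ratio falls from 0.908 at 90 kb outside to 0.738 at 30 kb inside, and the ChIP falls more than the input.

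All 19 autosomes held Brg1-poor windows, in unequal shares. Chromosome 7 had the highest share, with 459 of 1287 tested windows (35.7%), followed by chromosome 17 with 277 of 885 (31.3%) and chromosome 6 with 449 of 1444 (31.1%). Chromosome 10 had the lowest, with 257 of 1258 (20.4%), next to chromosome 13 with 234 of 1119 (20.9%) and chromosome 11 with 256 of 1183 (21.6%). The share that lay in long runs also varied, from 14.1% of the members on chromosome 18 to 45.8% on chromosome 7. Chromosome 7 led in the number of runs of at least 1 Mb too, with 6, while chromosomes 14, 18 and 19 had none. A chromosome could hold many low and many high windows: chromosome 7, with the highest share of Brg1-poor windows, had 12.4% Brg1-rich windows, the same share as the autosomes together. Within the members the median ratio varied little between chromosomes, from 0.711 on chromosome 7 to 0.744 on chromosome 18.

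Position along the chromosome arm made little difference on average. When each autosome was cut into 10 equal parts from position 3300000 to its end, the share of Brg1-poor windows ran from 22.6% in part 7 to 32.1% in part 2. In part 2 single autosomes ranged from 4.80% to 56.0%, a spread far wider than the difference between parts. The 5 Mb at the start of the chromosomes, next to the centromere in the mouse, held 27.1% Brg1-poor windows, the last 5 Mb held 24.8% and the rest 27.0%. The share at the start was above that of the rest of the same chromosome in 9 of 19 autosomes, and the share at the end in 6 of 19.

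Brg1-poor windows had less input as well as less ChIP. Their median was 190 input tags per 100 kb, against 254 in comparison windows and 238 in all tested windows, and 322 ChIP tags against 599 and 518. The median input was thus 0.748 times and the median ChIP 0.538 times that of comparison windows. The input is the denominator of the ratio. At a given ChIP count a lower input raises the ratio, but it also widens its counting error. How these weighed in the choice of members was not tested. On the unused strand, which the choice did not touch, the median was 94 input tags per window chosen at 0.8 or less and 125 per window chosen within 5% of 1. The relation held over the whole range: the median minus-strand input rose in every step, from 84 tags at a plus-strand ratio of 0.6 or less to 156 tags above 1.5. On every autosome the median input of members was under that of comparison windows, at 0.673 times on chromosome 7 to 0.818 times on chromosome 3.

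Stretches without any tag account for a part of the lower input by count. Of the 1 kb bins of Brg1-poor windows 5.17% held no tag of either library, against 2.58% in comparison windows, and the share was higher in members on all 19 autosomes. In comparison windows with an input inside the interquartile range of the members it was 4.66%, and members were higher on 12 of 19 autosomes. In those with a ChIP count inside the interquartile range of the members it was 9.09%. This match on ChIP at a ratio near 1 leaves windows of lower input, with 1.51 input tags per kb against 1.98 in members. High shares of empty bins were thus also found in windows of low input with a ratio near 1. Per 1 kb bin with at least 1 tag, the input was 2.09 tags in Brg1-poor and 2.59 in comparison windows, or 0.807 times. Whether the empty bins lie in repeats, to which short tags cannot be assigned, was not tested, since no sequence of this build was used.

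The members were not uniform in input. At one end, 698 members (11.1%) had fewer than 150 input tags; 57.0% of them lay in long runs, and 12.4% of their 1 kb bins were empty. At the other end, 812 members (12.9%) had at least 254 input tags, the median of comparison windows; 13.9% of these lay in long runs, 406 were single windows, and 0.986% of their 1 kb bins were empty. Their ratios were close, with medians of 0.720 and 0.742. Members rich in input were also found more often near the chromosome ends: 15.5% of them lay in the last 10 Mb, against 7.10% of all members and 7.88% of all tested windows. The matching share of all tested windows with at least 254 input tags was not computed. Whether the higher share near the ends belongs to Brg1-poor windows or to any windows rich in input was therefore not tested. The split of the members by input was made after the values were seen.

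Inside Brg1-poor windows the low ratio was widespread rather than set by a few bins. Of 58834 bins of 10 kb with at least 10 input tags, 66.5% were at 0.8 or less (66.1 to 66.9), with a median of 0.707. In comparison windows 28.2% of such bins were at 0.8 or less, at a median of 0.955, which shows the spread of bins of this size. How much of this spread was counting error was not tested. Bins with a ratio of at least 1.5 made up 0.637% in Brg1-poor windows and 9.07% in comparison windows. These bins add up to the windows chosen, so the figures describe how the deficit was spread and do not test it.

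Along a window, ChIP tags were also distributed more evenly than elsewhere. For each window, the covariance of plus-strand and minus-strand counts over its 1 kb bins was divided by the product of their means. Separate counting noise of the strands drops out of this relative variance. A window with strong focal ChIP signal tends to have a higher ratio, so the rule itself keeps such windows out, and a lower ChIP value in members partly follows from the choice. For the ChIP it was 0.137 ± 0.0121 (mean and SD over 19 autosomes) in Brg1-poor windows and 0.278 ± 0.0188 in comparison windows, lower in members on all 19 autosomes. For the input it went the other way, at 0.0852 ± 0.0101 against 0.0558 ± 0.0113, higher in members on 18 of 19. The autosomes are parts of the same libraries and are no replicates. When the windows were chosen on the even 1 kb bins and measured in the odd ones, the ChIP values were 0.151 ± 0.0171 and 0.289 ± 0.0185, again lower in the windows chosen at 0.8 or less on all 19, and the input values were 0.0801 and 0.0526. Focal signal can extend over neighbouring bins, so this removes shared counting noise and not the choice against such signal.

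Since both groups differ in input, 869 comparison windows with an input inside the interquartile range of the members, 166 to 225 tags, were set beside them. Their ChIP relative variance was 0.315 ± 0.0475, above that of Brg1-poor windows on all 19 autosomes, and their input value was 0.106 ± 0.0277, above that of members on 13. So the evener ChIP was not seen in windows of like input, while the more variable input was. In Brg1-rich windows the ChIP value was 0.373 ± 0.0142. Within the members it was 0.135 ± 0.0201 in long runs and 0.138 ± 0.0205 in single windows, lower in long runs on 12 of 19 autosomes. The relative variance of the ChIP in members was closer to its covariance with the input, 0.0940 ± 0.0114, than in comparison windows, where that covariance was 0.0723 ± 0.0114. Places of strong focal signal were rare in members: 377 of 628600 bins of 1 kb held at least 20 ChIP tags, 6.00 per 10000 (5.41 to 6.63), against 140 per 10000 in comparison windows (136 to 144). The lower ChIP level by which members were chosen enters this count. In comparison windows of like input it was 57.7 per 10000 (52.7 to 62.9), and in the 147 comparison windows with a ChIP count inside the interquartile range of the members it was 20.4 per 10000 (13.8 to 29.1), still above that of members.

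Maxima of the distances between tags were sought in preset ranges in both kinds of windows. Every tag was paired with the tags that follow on its strand, and the counts per distance were smoothed over 31 bp and freed of a quadratic trend. The repeat is given as the mean step from the first to the third maximum, whatever the place of the second. In Brg1-poor windows the ChIP library had maxima at 181, 367 and 531 bp, a repeat of 175 bp. The comparison windows had 193, 356 and 546 bp, a repeat of 176.5 bp. The positions depend on the processing: without removal of the trend, the first ChIP maximum lay at 166 bp in members and at 169 bp in comparison windows. Taken on each strand alone, the repeat was 174.5 and 197 bp in members and 178.5 and 172.5 bp in comparison windows. In the ChIP the groups thus differed by less than the strands did. In the input the repeat was 177.5 bp in members, with 191.5 and 176.5 bp on single strands, and 205.5 bp in comparison windows, with 188.5 and 209.5 bp. Pooled over strands, the groups differed there by more than the strands did. On the plus strand alone members had the longer repeat, 191.5 against 188.5 bp, so the strands disagreed on the direction. In the comparison windows of like input the repeat was 163 bp in the ChIP, with 161.5 and 191.5 bp on single strands. In the input of these windows it was 215 bp, with 167.5 and 221.5 bp. The ranges in which the maxima were sought were preset, so a maximum is found in any curve.

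The first nucleosome step was small in both groups, and in the ChIP it was lower in Brg1-poor windows than in all comparison windows. The ratio of pairs at 160 to 190 bp to pairs at 220 to 280 bp is 1 where there is no step. It was 1.019 in the ChIP of Brg1-poor windows and 1.032 in comparison windows. The difference per autosome, members less comparison windows, was -0.012 ± 0.020 (SD over 19 autosomes) and was negative on 14 of 19, and the counting intervals of the summed ChIP pairs, 1.013 to 1.026 and 1.027 to 1.037, did not overlap. Beside comparison windows of like input, with 1.022 (1.010 to 1.035), they did. In the input the difference was 0.0053 ± 0.046 and was positive on 8 of 19, with overlapping intervals of 1.017 to 1.041 and 1.014 to 1.040.

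The excess of near pairs over far pairs in the ChIP differed on more autosomes. Pairs at 160 to 190 bp stood at 1.04 ± 0.0140 times the pairs at 900 to 1000 bp in Brg1-poor windows and at 1.096 ± 0.0108 times in comparison windows, lower in members on all 19 autosomes. At 20 to 100 bp the values were 1.07 ± 0.0129 and 1.11 ± 0.0113, again lower in members on all 19. Beside the comparison windows of like input, members were lower on 17 of 19 autosomes at 160 to 190 bp and on 18 of 19 at 20 to 100 bp. In the input the values at 160 to 190 bp were 1.04 ± 0.0279 and 1.04 ± 0.0294, higher in members on 10 of 19. At the shortest distances the order of the ChIP curves was the opposite: at 20 bp the smoothed curve stood at 1.38 in members, 1.24 in comparison windows and 1.30 in those of like input, and only from 31 bp on did members lie under both. In the input the members also stood higher at 20 bp, at 1.29 against 1.18 and 1.26. This difference rests on the same tags as the evener ChIP in 1 kb bins and on those that chose the windows. On the minus strand of windows chosen on plus-strand tags, the ChIP values at 160 to 190 bp were 1.048 ± 0.0154 and 1.092 ± 0.0141, lower in the windows chosen at 0.8 or less on all 19 autosomes, and those at 20 to 100 bp were lower on 17 of 19.

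Between strands, close pairs stood out more from their surroundings in Brg1-poor windows, although there were fewer of them per tag. Distances from a plus-strand to a minus-strand tag were in excess at 20 to 60 bp in both libraries. The ChIP had 121 such pairs per 1000 plus-strand tags in members and 188 in comparison windows, and the input had 63.4 and 65.7. After subtraction of the level at 230 to 280 bp, the ChIP had 38.6 ± 5.78 excess pairs per 1000 plus-strand tags in members and 24.3 ± 4.26 in comparison windows, more in members on 18 of 19 autosomes. The input had 17.4 ± 2.69 and 9.62 ± 2.46, more in members on all 19. Members in long runs had more than single members in both libraries, with 46.1 ± 9.20 against 31.7 ± 7.07 in the ChIP and 19.9 ± 5.62 against 14.5 ± 4.06 in the input.

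In the comparison windows of like input this excess was nearer to that of members, at 31.4 ± 6.35 in the ChIP and 15.2 ± 5.24 in the input. Members were higher there on 12 and on 13 of 19 autosomes, by 7.16 ± 10.03 and 2.20 ± 5.49. In the 147 comparison windows of like ChIP level the order was turned, with a summed excess of 51.0 in the ChIP and 18.7 in the input, against 38.8 and 17.6 in members. The excess was thus also found in windows of low input with a ratio near 1, and in the library made without an antibody. The files do not tell which end of a minus-strand tag is listed, so these distances are not read as fragment lengths. These pair and variance measures, and their repeats in tags not used for the choice, were chosen after the first results had been seen.

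**Figure D5:**
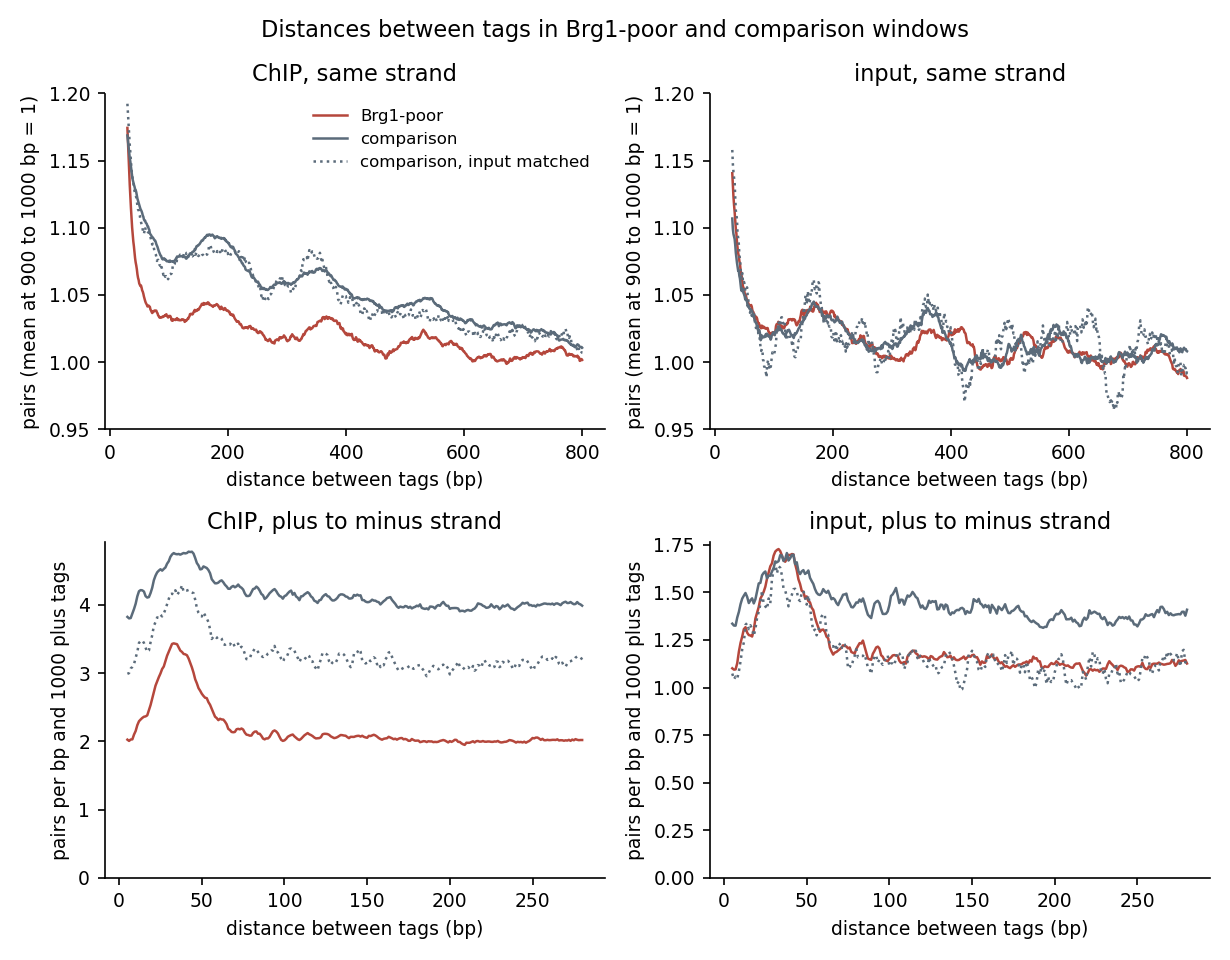
Distances between tags on the same strand (top, 31 bp running mean, pairs at 900 to 1000 bp set to 1) and from plus-strand to minus-strand tags (bottom, 5 bp running mean, pairs per bp and 1000 plus-strand tags) for the ChIP (left) and the input (right). From 31 bp on, the ChIP curve of Brg1-poor windows (red) lies under both comparison curves on the same strand; in the input the curves cross repeatedly, and at 20 to 60 bp all plus-to-minus curves rise.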

How the data were processed

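The data are 1 Brg1 ChIP library and 1 input library. The deposited files list tag counts per position and strand, as raw counts with no normalization; per the submitters' processing notes Bowtie and mm9 were used, with no version, and filters on repeated tags were not given in the sources used here. A listed position holds at most 2 ChIP tags, and at most 1 input tag on 18 autosomes.

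Tags were summed by listed position, without movement, in 100 kb windows, and the libraries were scaled by their autosomal totals, with 2.36 ChIP tags to 1 input tag. Positions are printed as listed and may be off by 1 bp. Intervals of ratios are exact conditional (Clopper-Pearson) intervals, those of shares exact binomial ones. Windows chosen on 1 strand needed 50 input tags on it. Regions were named by rule: the 10 longest runs, the 5 windows with the lowest upper bound and the 3 nearest to the threshold on each side. The windows, the comparison groups and the rule were chosen with earlier results of these data known. The steps were tested on simulated data. Software was numpy 2.4.6, pandas 2.3.3, scipy 1.17.1 and matplotlib 3.10.9 under Python 3.11.15.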

Additional observations from a re-analysis of the deposited data

How the results depend on the processing

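The count of 6286 Brg1-poor windows depends on where the lines are drawn. It was 13992 (30.1% of tested windows) with 50 kb windows, 2750 (23.5%) with 200 kb windows, 2608 (15.9%) with at least 200 input tags, 3592 (15.4%) when the median window was set to 1, 4010 (17.2%) at a ratio of 0.75 or less, and 1066 (4.57%) when the upper bound of the interval had to be at most 0.8. Windows of 50 kb and 200 kb change the number tested, to 46498 and 11681, and why the share moved with window size was not tested. The minimum of 200 input tags also changes the number tested, to 16399, so its share is one of windows richer in input. This minimum and the remaining changes make the rule stricter and by construction keep a part of the same members. A shift by 50 kb, at least 50 input tags, 1 tag per position, a ratio of 0.85 or less and leaving out chromosome 9 kept the count within 1.5 times. The largest of these counts was 8549 (36.7%), at a ratio of 0.85 or less. The 291 long runs became 70 with 50 kb windows and runs of at least 10, where more windows must pass. The share of 10 kb bins at 0.8 or less, 66.5%, was 69.8% with 20 kb bins and 79.4% with at least 20 input tags per bin, a minimum that prefers bins with a high denominator. The input of members relative to comparison windows, 0.748, was 0.807 per occupied 1 kb bin and 0.752 on the unused strand. The held-out ratio stayed inside its interval under all 3 alternatives. The difference of the nucleosome step turned from -0.012 to 0.038 ± 0.139 (SD over 18 autosomes) in the ChIP, and from 0.0053 to -0.0089 ± 0.093 in the input, with comparison windows matched on tags, of which 147 and 869 remained. Measured in tags that the choice had not used, an alternative added after the data were seen, the differences from comparison windows in the relative variance of both libraries and in the near pairs of the ChIP kept their direction and moved by less than 1 SD over autosomes. No paired analysis was possible because only 1 ChIP and 1 input library exist in this design. Depth limits single windows: at a median of 190 input tags the interval of a member had a median width of 0.264.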

Other observations

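Several long runs were parts of wider low stretches. When runs were allowed to bridge a single window that was no member, 382 runs of at least 5 members were found. The widest spanned 4.7 Mb on chromosome 2 at 85200000 to 89899999, with 39 members among 47 windows and a ratio of 0.708 (0.688 to 0.730) over the whole span. Its bridged windows lay at 0.812 to 0.867, apart from 1 with too few input tags. The next spanned 4.5 Mb on chromosome 1 at 102700000 to 107199999, with a ratio of 0.735 (0.714 to 0.756), and took in the 1.6 Mb run at 103300000. A stretch of 4.2 Mb on chromosome 5 at 126000000 to 130199999 had a ratio of 0.748 (0.729 to 0.767) and held both of the windows of chromosome 5 with the lowest upper bounds. It also held a bridged window at 1.37, the highest among those of the 5 widest stretches.

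The same rule, applied to chromosome X with the autosomal scale, gave 340 of 992 tested windows (34.3%), with a longest run of 0.6 Mb. Of its 1634 windows, 642 had too few input tags to be tested, against 788 of 24104 on the autosomes, and untested windows break runs. The tested windows of chromosome X had a median of 120 input tags.

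The 192 windows with a ratio of 0.6 or less lay on all 19 autosomes, and 60.9% of them were in long runs, against 33.5% of all members. Chromosome 7 held 29 of them and chromosome 4 held 22, while chromosomes 16 and 18 held 1 each. Chromosome 7 also led by the share of its tested windows, followed by chromosome 17 and then by chromosome 4. The densest 5 Mb was on chromosome 17 at 50000000 to 54999999, with 6 such windows. The choice of these windows used the same ratios that define the runs.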
